A study of Mus musculus with 8 samples.

Results

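The ID proteins (Id1, Id2, Id3 and Id4), the E proteins (Tcf3, Tcf4 and Tcf12) and Tcf23 were followed in MIN6 cells, a mouse insulin-producing β-cell line, after forced expression of the transcription factor Klf4. These 8 genes were found by their symbols among the 55536 genes of the deposited count table, and all 8 passed the filter on low counts that left 18266 genes for testing. Tcf23 was chosen by its measured log2 fold change, among the most raised in the comparison of Klf4 with control, so its values in that comparison are given as a description without a test. The other members were chosen as its protein family.

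The cells, labelled WT, were transfected for 48 h with Lipofectamine 3000, either with the empty vector pcDNA 3 (control, 4 libraries) or with pGloMyc-Klf4 (Klf4, 4 libraries). The plasmids carry different names, so the backbone and Klf4 changed together. Replicates 1 and 2 of both groups are labelled batch 1, and replicates 3 and 4 are labelled batch 2. The series calls the libraries biological replicates without saying what separates them. The extraction text speaks of isolated islets, whereas every label names the cell line.

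E proteins are broadly expressed basic helix-loop-helix (bHLH) transcription factors. They pair through the helix-loop-helix with tissue-restricted class II bHLH factors, such as Neurod1 in β cells, and the pair binds E-box sequences through its basic regions. ID proteins have the helix-loop-helix but lack the basic region, so an E protein held by an ID protein cannot bind DNA. Tcf23, also called OUT, is a bHLH protein first described in ovary, uterus and testis that inhibits E protein binding to DNA in the manner of an ID protein. The symbols Tcf3 and Tcf4 here stand for the E proteins E2A and ITF2, not for the Wnt-pathway factors once given the same names.

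Library totals lay between 45417853 and 52731176 counts and did not differ between groups beyond the replicate spread (two-sided exact permutation p = 0.229). Klf4 itself went from 40.1 ± 3.11 to 5040 ± 567.2 CPM (TMM-scaled counts relative to the library total; SD, n = 4), or 6.97 ± 0.07 (SE) as a log2 fold change (adjusted p = 1.21e-25, edgeR). In edgeR's quasi-likelihood test with a batch term, 36.6% of the 18266 tested genes passed an adjusted p of 0.05, 21.1% higher and 15.5% lower in Klf4 libraries. Of these calls 57.7% were higher, and 72.8% were higher when scaling rested on highly expressed genes (log2 CPM from 6 up). The 8 values of a gene did not overlap between the groups for 26.1% of tested genes. All 10 β-cell markers had counts (0 called higher, 5 called lower), and their summed level was 25331 to 32108 CPM in control and 23656 to 32362 CPM in Klf4 libraries. Summed markers of other cell types were low in control but higher in every Klf4 library for endothelium (13.7 to 16.8 against 26.4 to 30.2 CPM, 4 of 7 markers called higher), mesenchyme (2.65 to 3.92 against 21.1 to 27.5 CPM, 3 of 7, Lum at 0) and stratified epithelium (3.82 to 4.26 against 23.7 to 36.3 CPM, 2 of 7, Ivl and Trp63 at 0). The sums overlapped between groups for acinar, immune and delta-cell markers, with no marker called, and for ductal (4 of 6 called higher) and α-cell markers (2 of 4). Only 5 of the 7 endothelial, 4 of the 7 mesenchymal and 3 of the 7 stratified epithelial markers passed the filter and were tested. Of the acinar, immune, delta-cell and ductal markers, 1, 3, 0 and 4 were tested. Markers with few control reads could be tested only if they were high in Klf4 libraries, so these calls partly reflect the filter. The part of these markers in the results below was not tested.

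Tcf23 (ENSMUSG00000006642) lies on chromosome 5, 30968662 to 30977018, plus strand, in GRCm38, and is protein-coding. It had no counts in any control library, which at a floor of 3 counts per library allows up to 0.0637 CPM. In Klf4 replicates 1 to 4 it had 373, 295, 616 and 592 counts, or 7.22, 6.52, 11.7 and 11.2 CPM. No control library held a single read, and every Klf4 library held at least 295. At a mean of 9.17 ± 2.68 CPM (SD, n = 4), Tcf23 was at least 147.7-fold higher in Klf4 libraries. This was reckoned from the mean floor of the control libraries, 0.0621 CPM. Its fitted log2 fold change (11.83) had rank 3 among all tested genes, after Anxa8 (12.09) and Calm4 (12.01) and just ahead of Fam25c (11.68) and Krt14 (11.55). Fitted against 0 counts, such a value rests on edgeR's prior count and is no bound. Of the 25658 genes without counts in the control libraries, 1.63% (418 genes) had counts in all 4 Klf4 libraries, and of these only 2, Tcf23 and Calm4, had a mean CPM of at least that of Tcf23. In the opposite direction, 10 of 23916 genes without counts in the Klf4 libraries had counts in all 4 control libraries.

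Within the Klf4 group, Tcf23 was higher in both libraries of batch 2 than in both of batch 1. The batch means were 6.87 and 11.5 CPM, a ratio of 1.67, given without a test. Klf4 itself averaged 4703 CPM in the Klf4 libraries of batch 1 and 5378 CPM in those of batch 2, a ratio of 1.14.

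The genes closest to Tcf23 in their pattern were named by the root-mean-square difference of centred log2 CPM over the 8 libraries. They were Calm4 (0.13), a calmodulin-family gene, Fam25c (0.16), Trim29 (0.22), Krtdap (0.25), a keratinocyte differentiation gene, and Hand1 (0.28). Hand1 encodes a class II bHLH factor known from heart and placenta. These genes lie on chromosomes 13, 14, 9, 7 and 11 respectively, so none is a neighbour of Tcf23. The distance rests largely on the rise over control by which Tcf23 was picked. Each of these genes had at most 0.016 CPM in control and 6.38 to 12.3 CPM in Klf4 libraries. Their closeness therefore says nothing about shared regulation.

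Protein-coding genes beside Tcf23 were looked at after its values had been seen, 3 on each side. Cgref1, which ends 23.1 kb before Tcf23, rose from 2.19 to 5.48 CPM (log2 fold change 1.33, SE 0.13, edgeR adjusted p = 1.26e-08). Slc5a6, a vitamin transporter gene 59.0 kb beyond the other end, rose by 0.29 ± 0.05 (SE) on the log2 scale (adjusted p = 2.6e-05, edgeR), and Cad, a pyrimidine synthesis gene, fell by 0.12 on the log2 scale (SE 0.03, edgeR adjusted p = 0.00157). The nearest neighbour, Preb at 8.3 kb, had a log2 fold change of -0.04 (edgeR adjusted p = 0.359), and Khk and Atraid did not pass the threshold either (edgeR adjusted p = 0.13 and 0.107).

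RefSeq promoter windows, the 250 bases before an annotated start, were used for 6 of the 8 members. No window was found for Id1. Tcf4 lay outside the part of the genome that was searched, so its absence is not a result. Windows are shown for Tcf23, for Id4, the ID gene with the largest change, and for Tcf3, the E protein gene that rose, because these 3 were higher in Klf4 libraries without overlap between groups. They run 5′ to 3′ on the gene's strand and stop before the GENCODE gene model begins, at chr5:30968427-30968661 (plus), chr13:48260866-48261115 (plus) and chr10:80433648-80433885 (minus) in GRCm38.p6. Capitals mark matches, on either strand, to GGGNGTG (a loose KLF-type pattern that allows any base at N), CANNTG (the E-box) and GGCGCC. The last is a GC-rich element bound by BMP-activated SMADs.
Tcf23: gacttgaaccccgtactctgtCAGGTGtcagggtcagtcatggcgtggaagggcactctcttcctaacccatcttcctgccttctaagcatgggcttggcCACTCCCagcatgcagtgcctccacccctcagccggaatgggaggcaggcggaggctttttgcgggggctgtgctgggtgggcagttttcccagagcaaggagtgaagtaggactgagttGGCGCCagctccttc
Id4: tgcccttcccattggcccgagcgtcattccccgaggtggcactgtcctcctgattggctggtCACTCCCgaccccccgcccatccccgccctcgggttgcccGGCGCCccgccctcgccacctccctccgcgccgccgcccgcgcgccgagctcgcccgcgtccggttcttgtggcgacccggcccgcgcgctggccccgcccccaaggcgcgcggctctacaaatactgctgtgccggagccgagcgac
Tcf3: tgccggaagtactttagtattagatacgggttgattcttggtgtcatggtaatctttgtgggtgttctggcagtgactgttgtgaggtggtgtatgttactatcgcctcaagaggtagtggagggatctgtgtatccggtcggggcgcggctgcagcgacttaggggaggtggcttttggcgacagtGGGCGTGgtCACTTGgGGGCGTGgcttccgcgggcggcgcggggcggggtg

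GGGNGTG was present once in the 250-base window of Tcf23, once in that of Id4 and 2 times in that of Tcf3. Among the 32851 RefSeq promoter windows searched 26.1% held it, with any base at N. Read on the strand of the pattern, N was A in the Tcf23 and Id4 matches and C in those of Tcf3. Whether Klf4 binds these forms alike was not tested. Id3, which did not change, had 3 matches, 2 of which overlap each other, and Id2, which fell, had 0. The windows of Id3 and Id2 lie inside the GENCODE gene models, and those of Tcf12 lie inside wholly or in part. For these genes the matches are thus not of sequence before the gene model. The E-box was present in the windows of Tcf23, Tcf3 and Id2 and in 2 of the 3 windows of Tcf12, against 66.2% of the windows searched. GGCGCC was present in those of Tcf23, Id4 and Id2, against 9.59% of the windows searched. The 3 windows of Tcf12, 1 for each annotated start, held no GGGNGTG or GGCGCC. A match describes letters only and is not a bound site.

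Of the 4 ID genes, 2 rose (Id1 and Id4), 1 fell (Id2) and 1 did not pass the test (Id3). The differences were small except for Id4. Against a background of 36.6% of tested genes called in either direction, 3 of 4 ID genes and 2 of 3 E protein genes were called, which is not a test of the families. These genes averaged at least 8.52 CPM in control libraries, whereas the background also holds genes under 1 CPM, with larger standard errors. It is thus not a like background, here or for the batch term below.

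**Figure D1:**
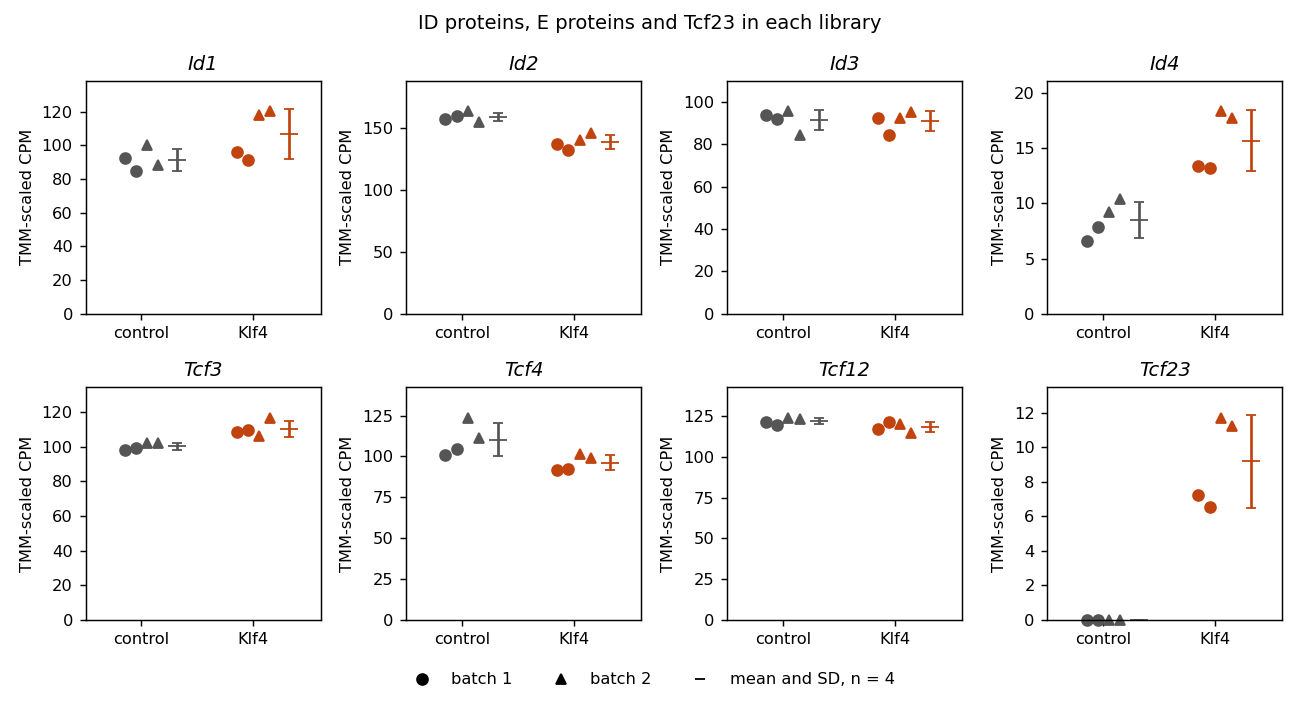
Expression of each member in TMM-scaled CPM (vertical axes start at 0), in the 4 control (grey) and 4 Klf4 (orange) libraries, with circles for batch 1, triangles for batch 2, and the mean with SD beside them. Id4, Tcf3 and Tcf23 were higher and Id2 was lower in every Klf4 library than in every control library, whereas the groups overlapped for Id1, Id3, Tcf4 and Tcf12.

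Id4 (ENSMUSG00000021379; chromosome 13, 48261228 to 48266026, plus strand), an ID protein known from neural and mammary progenitors, had 312, 381, 455 and 501 counts in control replicates 1 to 4, or 6.63, 7.83, 9.23 and 10.4 CPM. In Klf4 replicates 1 to 4 it had 690, 599, 965 and 938 counts, or 13.4, 13.2, 18.4 and 17.8 CPM. The highest control library lay below the lowest Klf4 library, and in both groups the libraries of batch 2 were the higher ones. The mean rose from 8.52 ± 1.64 to 15.7 ± 2.77 CPM (SD, n = 4), a ratio of 1.84, or 0.88 ± 0.07 (SE) as a log2 fold change (adjusted p = 2.83e-10, edgeR). It was 0.88 within each batch. Among all genes called higher, 57.2% had a log2 fold change of at least 0.5 and 40.3% of at least 1. Exons of Id4 overlap those of the antisense gene A330033J07Rik and the non-coding Gm49291, which had at most 2 and 5 counts in a library. No source used here gives the strand setting, so reads from genes that overlap in this way could not be told apart.

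Id1 (ENSMUSG00000042745; chromosome 2, 152736251 to 152737410, plus strand), a classic target of BMP signalling through SMADs, had 92.4, 84.7, 100.3 and 88.3 CPM in control replicates 1 to 4. In Klf4 replicates 1 to 4 it had 96.2, 91.6, 118.3 and 120.2 CPM. The Klf4 libraries of batch 2 stood above all others, and those of batch 1 lay within the control range. The mean rose from 91.4 ± 6.72 to 106.6 ± 14.8 CPM (SD, n = 4), by 16.6%, or 0.21 ± 0.05 (SE) as a log2 fold change (adjusted p = 0.000918, edgeR). The log2 fold change was 0.09 in batch 1 (edgeR adjusted p = 0.259) and 0.34 in batch 2 (edgeR adjusted p = 2.4e-06). The difference between batches, 0.25 (SE 0.07), did not pass the threshold after adjustment (edgeR interaction test, adjusted p = 0.104, unadjusted 0.00142). Without the batch term in the model the call for Id1 was lost, with an edgeR adjusted p of 0.097.

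Id2 (ENSMUSG00000020644; chromosome 12, 25093799 to 25097140, minus strand), the ID gene with the highest CPM in both groups, had 157.3, 159.7, 163.3 and 155 CPM in control replicates 1 to 4. In Klf4 replicates 1 to 4 it had 136.8, 131.8, 140.6 and 145.6 CPM. Every Klf4 library was below every control library. Id2 fell from 158.8 ± 3.56 to 138.7 ± 5.85 CPM (SD, n = 4), a ratio of 0.87, or -0.20 ± 0.03 (SE) as a log2 fold change (adjusted p = 1.91e-05, edgeR). It was -0.24 in batch 1 and -0.15 in batch 2. The median log2 fold change of all genes called lower was -0.16, so the change in Id2 was of the usual size for a lowered gene in these libraries.

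Id3 (ENSMUSG00000007872; chromosome 4, 136143497 to 136145755, plus strand), which like Id1 is induced by BMP signalling in many cells, had 94, 92, 95.6 and 84.5 CPM in control replicates 1 to 4. It had 92.4, 84.4, 92.3 and 95.2 CPM in Klf4 replicates 1 to 4. The groups overlapped almost entirely, at 91.5 ± 4.90 and 91.1 ± 4.64 CPM (SD, n = 4). Its log2 fold change was -0.01 (edgeR adjusted p = 0.928), with a 95% interval from -0.09 to 0.08, and its sign turned to 0.03 under scaling on highly expressed genes. The interval holds values on both sides of 0 and does not reach the changes of Id1, Id2 or Id4.

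**Figure D2:**
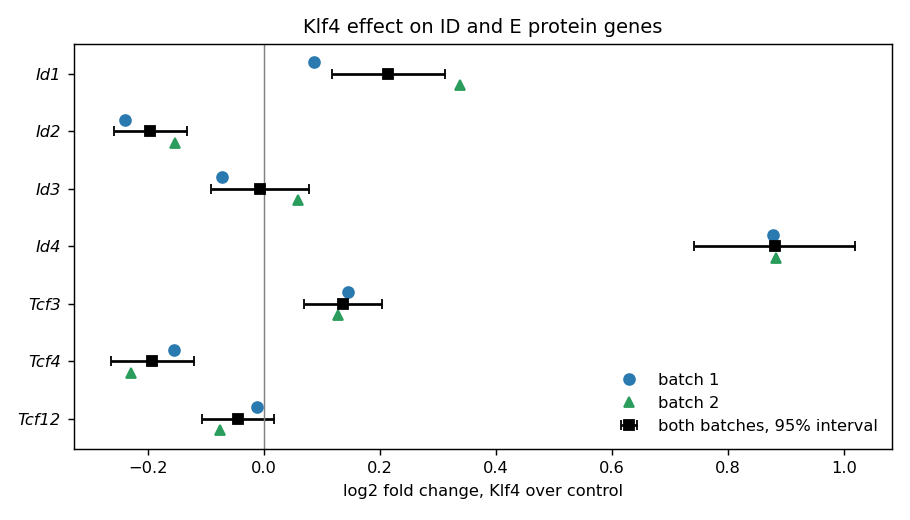
Log2 fold change of Klf4 over control (horizontal axis) for the 4 ID and 3 E protein genes, with the value from both batches and its 95% interval (black squares) and the values within batch 1 (blue circles) and batch 2 (green triangles). The value of 0.88 for Id4 stands apart from the other 6, which lie between -0.20 and 0.21.

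Tcf3 (ENSMUSG00000020167; chromosome 10, 80409514 to 80433647, minus strand) encodes the E12 and E47 proteins, the E proteins first found on immunoglobulin enhancers and able to pair with Neurod1 on the insulin promoter. It had 98.4, 99.1, 102.2 and 102.1 CPM in control replicates 1 to 4 and 108.7, 109.5, 106.2 and 116.9 CPM in Klf4 replicates 1 to 4. All Klf4 libraries were above all control libraries. Tcf3 rose from 100.4 ± 2 to 110.3 ± 4.6 CPM (SD, n = 4), by 9.87%, or 0.14 ± 0.03 (SE) as a log2 fold change (adjusted p = 0.0018, edgeR). It was 0.14 in batch 1 and 0.13 in batch 2.

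Tcf4 (ENSMUSG00000053477; chromosome 18, 69343356 to 69689079, plus strand), an E protein with many transcript starts that is known from neurons and dendritic cells, had 100.8, 104.4, 123.8 and 111.5 CPM in control replicates 1 to 4. In Klf4 replicates 1 to 4 it had 92, 92.3, 101.5 and 99.4 CPM. The groups overlapped over both batches together, since Klf4 replicate 3 exceeded control replicate 1, but within each batch both Klf4 libraries were below both controls. Tcf4 fell from 110.1 ± 10.2 to 96.3 ± 4.87 CPM (SD, n = 4), or -0.19 ± 0.03 (SE) as a log2 fold change (adjusted p = 0.000104, edgeR), and by 0.16 and 0.23 on the log2 scale within batches 1 and 2. The direction of the Tcf3 and Tcf4 changes was opposite, and both calls held under every alternative that was run.

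Tcf12 (ENSMUSG00000032228; chromosome 9, 71842688 to 72111871, minus strand) encodes HEB, an E protein with roles in lymphocyte and muscle development. It had 121.2, 119.6, 124.3 and 123.3 CPM in control replicates 1 to 4 and 117.1, 121.7, 120.2 and 114.8 CPM in Klf4 replicates 1 to 4. The groups overlapped, at 122.1 ± 2.1 and 118.4 ± 3.1 CPM (SD, n = 4), and the log2 fold change of -0.04 did not pass the threshold (edgeR adjusted p = 0.276, 95% interval from -0.11 to 0.02).

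For none of the 7 ID and E protein genes was a difference of the Klf4 effect between batches called by edgeR's interaction test, in which 0.766% of all tested genes were called. At an unadjusted p under 0.05 there was 1 such gene, Id1. The batch term itself, which compares batch 2 with batch 1, was called for 3 of these 7 genes, against 25.1% of all tested genes. Id4 was higher in batch 2 by 0.44 on the log2 scale (SE 0.07, edgeR adjusted p = 3.9e-05), Id1 by 0.22 (SE 0.05, edgeR adjusted p = 0.00131) and Tcf4 by 0.16 (SE 0.03, edgeR adjusted p = 0.00129). For Id2, Id3, Tcf3 and Tcf12 the batch term lay between 0.0086 and 0.05 and was not called. For Id1 the difference between batches was thus as large as that between groups.

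Levels of different genes were compared per kilobase, since longer transcripts give more reads. Divided by the length of all annotated exons, the control levels were 78.8 ± 5.79 CPM per kb for Id1, 65.1 ± 1.46 for Id2, 51.1 ± 2.74 for Id3, 24.9 ± 0.495 for Tcf3, 7.86 ± 0.135 for Tcf12, 4.02 ± 0.371 for Tcf4 and 2.21 ± 0.425 for Id4 (SD, n = 4), with Tcf23 at 0. No neighbours in this order overlapped between control libraries. Divided by the longest annotated transcript, Id1 (78.8 ± 5.79 CPM per kb) and Id2 (80.7 ± 1.81) overlapped, as did Id1 and Id3 (71.6 ± 3.84), so the order among the 3 abundant ID genes depended on the length used. In control libraries Tcf3 was above Tcf12 and Tcf4, and Id4 was below all E proteins, with either length. In Klf4 libraries Id4 (3.44 to 4.77 CPM per kb of all exons) overlapped Tcf4 (3.36 to 3.71) with the first length and was below it with the second.

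**Figure D3:**
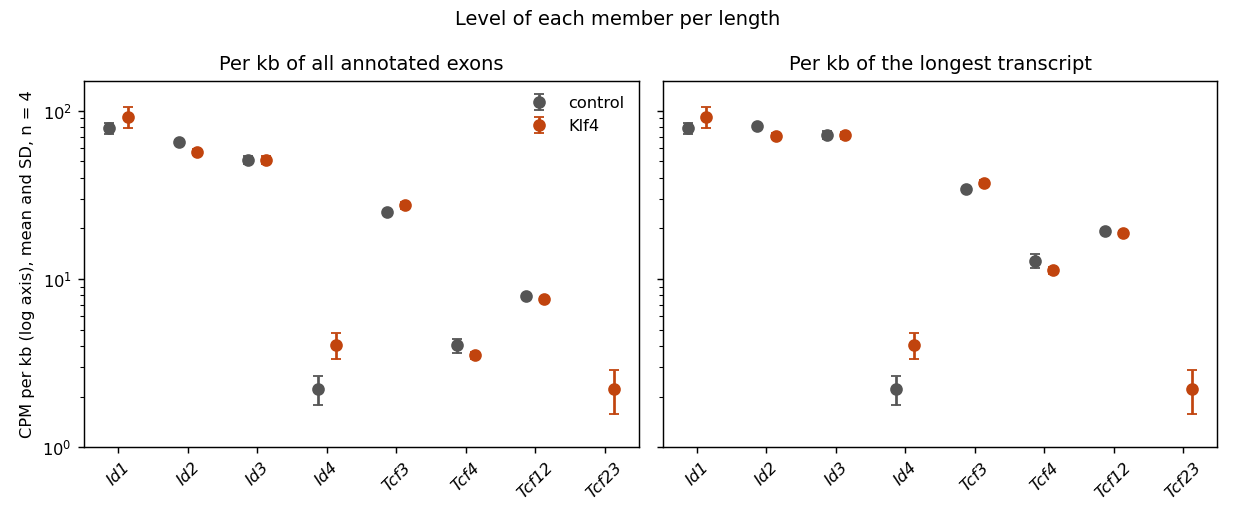
Level of each member in CPM per kb of exon, as mean and SD of 4 libraries on a log axis, for control (grey) and Klf4 (orange) libraries, with the length of all annotated exons on the left and of the longest transcript on the right. Id1, Id2 and Id3 stand above the E proteins with either length, Id4 stands below them in control libraries, and Tcf23 has no control point because it is at 0.

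In Klf4 libraries Tcf23 reached 2.23 ± 0.651 CPM per kb of exon (SD, n = 4), below the 4.07 ± 0.719 of Id4 in the same libraries. Its level was 1.07% ± 0.225 of the summed level of the ID genes and Tcf23 (SD, n = 4). The summed ID level was 197.3 ± 8.81 CPM per kb in control and 203.7 ± 17.8 in Klf4 libraries, and the summed E protein level was 36.8 ± 0.961 and 38.5 ± 1.04 (SD, n = 4). Both sums overlapped between groups. The ratio of the ID sum to the E protein sum was 5.53, 5.32, 5.53 and 5.08 in control replicates 1 to 4 and 5.13, 4.79, 5.72 and 5.53 in Klf4 replicates 1 to 4, or 5.37 ± 0.214 and 5.29 ± 0.416 (SD, n = 4). With the longest transcript as length it was 3.52 in both groups.

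While the sum moved little, its make-up shifted. The share of Id1 in the summed ID level per kb was 39.9% ± 1.37 in control and 44.96% ± 2.42 in Klf4 libraries (SD, n = 4), and that of Id2 was 33.1% ± 0.955 and 28.0% ± 1.36 (SD, n = 4). Id4 made up 0.868% to 1.42% in control and 1.79% to 2.21% in Klf4 libraries. For these 3 shares the groups did not overlap. The share of Id3 overlapped, at 25.9% ± 0.867 and 25.0% ± 1.32 (SD, n = 4). Shares of 1 sum move against each other by construction, and they are given as a description.

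The genes closest in pattern to Id4, by the same measure as above, were the tetraspanin gene Cd82 (0.07) and Hspa12b (0.10), with log2 fold changes of 0.95 and 1.01. Closest to Id1 were Car5b (0.04) and Gpr161 (0.06), and closest to Id2 were D10Wsu102e (0.03) and Tsc22d1 (0.03). Closest to Tcf3 were Lypla2 (0.02) and Habp4 (0.02), and closest to Tcf4 were Adgra3 (0.02) and Zmynd19 (0.03). For Id3 they were Fbxw9 (0.02) and the pseudogene Llph-ps2 (0.02), and for Tcf12 Wdr11 (0.01) and Syncrip (0.01), all of which had log2 fold changes near 0 (-0.04 to -0.0043). Small distances for genes that barely move say only that these genes were flat together.

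Class II bHLH factors, the partners that E proteins pair with, were examined as a list of 47 genes. Of these, 21 passed the filter, and 11 of the 21 changed, 9 higher and 2 lower, with a median log2 fold change of 0.24 against -0.01 over all tested genes. The list share of 52.4% called stood beside the background of 36.6%, and 5 of the 47 genes had no counts in any library. Hand1, Olig2, Neurog2, Tcfl5, Twist2 and Ascl3, all called higher, passed the filter only through their Klf4 libraries. Such genes could be tested only if they were high in Klf4 libraries, so the list share partly reflects the filter. Their values below are a description. Without Klf4 replicate 4 only 7 of the 21 were called, since Ascl3, Atoh8, Bhlhe22 and Nhlh2 dropped out, and without the batch term 6 were, these 4 and Neurod1 having dropped out.

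Hand1 had no counts in control libraries and 285, 238, 430 and 346 counts in Klf4 replicates 1 to 4. Reckoned from the mean control floor of 3 counts per library (0.0621 CPM), its Klf4 mean of 6.38 ± 1.33 CPM (SD, n = 4) stood at least 102.7-fold higher. Olig2, a factor of oligodendrocyte and motor neuron precursors, also had no control counts. It had 25, 16, 39 and 56 counts in Klf4 replicates 1 to 4, at least 10.6-fold higher. Ascl2, known from trophoblast and intestinal stem cells, rose from 0.28 ± 0.0452 to 1.96 ± 0.149 CPM (SD, n = 4), or 2.80 ± 0.22 (SE) as a log2 fold change (adjusted p = 4.09e-10, edgeR). Smaller numbers of reads lay behind Neurog2 (log2 fold change 1.97), Tcfl5 (1.78), Twist2 (2.15) and Ascl3 (1.26), all of which rose from under 0.2 CPM in control libraries and stayed under 0.8 CPM in Klf4 libraries. Tcfl5 and Twist2 share exonic sequence with another gene. Atoh8 (0.18) and Bhlhe22 (0.56) were also higher. Of 17 alternatives, the call was lost in 8 for Bhlhe22, in 6 for Ascl3 and in 5 for Atoh8. The groups overlapped for each of these genes.

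Neurod1, the main class II partner of E proteins in β cells, fell from 219.8 ± 11.6 to 198.7 ± 11.4 CPM (SD, n = 4), or -0.14 ± 0.04 (SE) as a log2 fold change (adjusted p = 0.00337, edgeR). It fell by 0.07 on the log2 scale in batch 1 and by 0.21 in batch 2, its groups overlapped, and its exons overlap another gene. It remained the class II factor with the highest CPM in both groups. The other lowered factor was Nhlh2 (log2 fold change -0.30), from 8.2 ± 2.73 to 6.57 ± 1.59 CPM (SD, n = 4). Bhlha15, a secretory-cell factor at 13.1 ± 2.56 and 13.2 ± 2.42 CPM (SD, n = 4), and Tcf24, at 2.21 ± 0.485 and 2.35 ± 0.329 CPM, did not pass the threshold (edgeR adjusted p = 0.889 and 0.667).

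Like Tcf23, 5 of the 15 class II factors without control counts had counts in all 4 Klf4 libraries, where 1.63% of all such genes did. That share covers all annotated gene types, pseudogenes and non-coding genes among them, so it is not a like background for these factors. Besides Hand1 and Olig2 these were Atoh1 (5 to 9 counts), Twist1 (4 to 9 counts) and Msc (2 to 6 counts), which did not pass the filter and were not tested. Ptf1a and Olig1 each had 1 control count in all, against 52 and 55 Klf4 counts, ratios of 49.7 (95% counting interval 8.54 to 2000.3) and 52.6 (9.05 to 2114). Counting intervals cover counting error only. Exons of Ptf1a, Olig1 and Msc overlap another gene. Tcf21, a relative of Msc, had no counts in any library. These genes below the filter were singled out after their values had been seen.

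**Figure D4:**
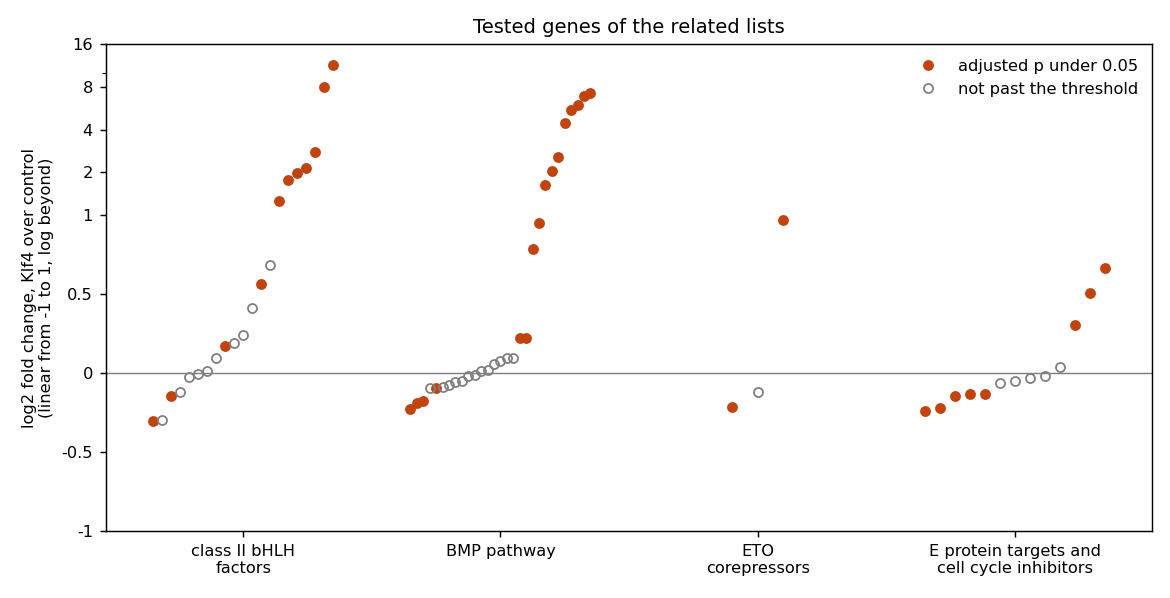
Log2 fold change of Klf4 over control (vertical axis, linear from -1 to 1 and logarithmic beyond) for the tested genes of 4 lists, sorted within each list, with filled points for genes at an edgeR adjusted p under 0.05. Among class II bHLH factors 9 were higher and 2 lower, and in the BMP pathway 12 were higher and 4 lower. The highest points are fitted values against few or no control counts, for genes that passed the filter only through their Klf4 libraries.

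The BMP pathway was examined because it is the best known inducer of Id1, Id2 and Id3: BMP ligands bind receptors that phosphorylate Smad1, Smad5 and Smad9, which enter the nucleus with Smad4. Of 37 listed genes 36 were in the table and 29 were tested, and 16 of these changed, 12 higher and 4 lower (55.2% called, beside 36.6% of all tested genes). The median log2 fold change was 0.08. Bmp2, Bmp6, Bmp7, Gdf6, Nog, Fst, Rgma and Acvrl1, all called higher, likewise passed the filter only through their Klf4 libraries. The list share therefore partly reflects the filter here too, and the values of these genes are a description.

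Several ligand, antagonist and co-receptor genes with few control reads were higher in Klf4 libraries. Bmp2 had 2, 0, 0 and 2 counts in control and 128, 103, 154 and 168 counts in Klf4 replicates 1 to 4, a ratio of 132.1 (95% counting interval 51.3 to 486.7). Gdf6 had 2 control counts in all against 164, a ratio of 78.4 (95% counting interval 21.4 to 652.6). These intervals come from reads pooled over libraries. They cover counting error only, not the spread between libraries, and are no test. The antagonist genes Nog and Fst had 1 and 0 control counts in all against 69 and 74. The co-receptor gene Rgma rose from 0.16 ± 0.0613 to 3.58 ± 0.95 CPM (SD, n = 4), or 4.44 ± 0.24 (SE) as a log2 fold change. Bmp6 (log2 fold change 2.06) and Bmp7 (1.64) rose as well, from under 0.2 CPM. The antagonist genes Chrd, Grem1 and Twsg1 did not pass the threshold, with log2 fold changes of 0.06, -0.06 and -0.01. Exons of Fst, Rgma and Bmp6 overlap another gene. Bmp4, below the filter and not tested, had 1 control count against 95 (9 to 45 a library), and its exons overlap another gene too.

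Among the receptors, Acvrl1, the endothelial BMP receptor gene, rose from 0.191 ± 0.0267 to 1.19 ± 0.528 CPM (SD, n = 4), or 2.58 ± 0.29 (SE) as a log2 fold change. Its co-receptor gene Eng rose too (log2 fold change 0.95, edgeR adjusted p = 0.0049), and both overlap another gene. The summed endothelial markers were also higher in these libraries, at 26.4 to 30.2 against 13.7 to 16.8 CPM, and their part in this result was not tested. The abundant receptors Bmpr1a and Bmpr2 did not pass the threshold (log2 fold changes -0.07 and -0.01, edgeR adjusted p = 0.129 and 0.836), whereas Acvr1 fell (-0.19, edgeR adjusted p = 0.00276).

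All 3 SMADs that BMP receptors phosphorylate fell slightly. Smad1 went from 74.3 ± 0.626 to 66 ± 3.08 CPM (SD, n = 4), or -0.17 ± 0.03 (SE) as a log2 fold change (adjusted p = 0.000299, edgeR). Smad9 went from 50 ± 4.05 to 42.8 ± 1.6 CPM (SD, n = 4), or -0.22 ± 0.04 (SE) as a log2 fold change (adjusted p = 0.000196, edgeR). Smad5 had a log2 fold change of -0.09 (edgeR adjusted p = 0.0319), a call that was lost without the batch term, under scaling on highly expressed genes, with the filter at 1 CPM, and without control replicate 3 or Klf4 replicate 2. Exons of Smad5 overlap another gene. Smad4, the shared partner, did not pass the threshold (0.02, edgeR adjusted p = 0.746). Of the feedback inhibitors that BMP signalling itself induces, Smad7 rose (0.22, edgeR adjusted p = 0.00107, not called without the batch term) and Smad6 and Bambi did not pass the threshold (edgeR adjusted p = 0.479 and 0.135). Smurf1 (0.22) and Bmper (0.78) were the other higher genes.

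ETO family corepressors bind E proteins and silence their targets. Cbfa2t3 rose from 27.1 ± 0.518 to 53.2 ± 3.66 CPM (SD, n = 4), or 0.97 ± 0.04 (SE) as a log2 fold change (adjusted p = 1.52e-14, edgeR), with 0.91 and 1.03 within batches 1 and 2. Cbfa2t2 fell from 60.4 ± 4.33 to 52.2 ± 3.28 CPM (SD, n = 4), or -0.21 ± 0.03 (SE) as a log2 fold change (adjusted p = 2.96e-05, edgeR). Runx1t1 was just outside the threshold (-0.11, edgeR adjusted p = 0.0505), with 0.02 in batch 1 and -0.24 in batch 2. It was called under scaling by DESeq2-type size factors or by library totals. The same held without control replicate 1, control replicate 2 or Klf4 replicate 2. Exons of Cbfa2t3 overlap an antisense gene.

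A last list held 13 genes, β-cell genes tied to E proteins and Neurod1 together with cyclin-dependent kinase inhibitors, some of which E proteins are known to induce. All 13 were tested, and 8 changed, 3 higher and 5 lower, with a median log2 fold change of -0.05 (61.5% called, beside 36.6% of all tested genes). All 13 averaged at least 3.35 CPM in control libraries. The background also holds genes under 1 CPM, with larger standard errors, so it is not a like background. The 3 higher genes were kinase inhibitors. Cdkn1a, a known E protein target, rose from 156.4 ± 7.61 to 222.8 ± 23.5 CPM (SD, n = 4), or 0.51 ± 0.04 (SE) as a log2 fold change (adjusted p = 6.44e-11, edgeR). Cdkn1c (0.66, edgeR adjusted p = 1.63e-05) and Cdkn2b (0.31, edgeR adjusted p = 0.000537) rose as well, Cdkn1b fell (-0.13, edgeR adjusted p = 0.000434), and Cdkn2a did not pass the threshold (0.04, edgeR adjusted p = 0.346). Exons of Cdkn1a and Cdkn1c overlap another gene. Of the β-cell genes, Sct (-0.24), Slc30a8 (-0.22), Neurod1 (-0.14) and G6pc2 (-0.13) fell, the calls for Sct and Neurod1 being lost without the batch term. The insulin genes did not pass the threshold, with log2 fold changes of -0.02 for Ins1 and -0.03 for Ins2 (edgeR adjusted p = 0.66 and 0.447).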

How the data were processed

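The values were whole-number read counts per gene and library that the authors deposited, neither normalised nor pooled. Per the submitters' processing notes the tools were FastQC, STAR, featureCounts and edgeR on mm10, without versions, and the deposited file's name mentions trimming with cutadapt. The strand setting and annotation are not given in the sources used here. All 55536 pairs of identifier and symbol matched GENCODE M21 (GRCm38), which gave coordinates and lengths.

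Counts were tested in edgeR 4.0.16 (limma 3.58.1, R 4.3.3): filterByExpr (minimum count 10), TMM scaling, glmQLFit with batch and group, the quasi-likelihood test, and Benjamini-Hochberg adjustment over 18266 genes at 0.05. Standard errors are the size of the log2 fold change over the square root of the F statistic. Values within batches came from 1 nested fit of all libraries. On simulated counts of this comparison (17282 genes run), 76% of changes of 0.25 on the log2 scale and 92% of those of 0.5 were recovered. Of the calls, 6.63% were false. Only 50 genes were changed for each size, none of them of low expression, and far more genes were called in the data. These shares therefore do not carry over to list genes with few reads.

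The members and lists were chosen with earlier results of these data known. Named list genes were those past the threshold (at most 6 a list by adjusted p) and those called with a log2 fold change over 1; others were added after their values were seen. Replicate numbers come from the titles, and deviations of same-numbered libraries correlated at 0.46 to 0.61 over 10485 genes, and differently numbered ones within a batch at 0.46 to 0.57. Between batches the correlation was -0.63 to -0.45. The deviations were from the group mean and still hold the batch difference, so they cannot show whether same-numbered libraries are pairs. With the replicate block 6284 genes changed, and no call for a member differed. No 2 libraries of a group were as alike as counting noise alone would make them (chi-square per degree of freedom of at least 4.28), so all 8 were kept. Alternatives were no batch term, the replicate block, 3 other scalings, the DESeq2 1.42.0 Wald test, limma-voom, other filters and the omission of each library. Protein sequences were not used here, so the planned comparison of proteins was not made. Promoter sequences are those of RefSeq (GRCm38.p6).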

Additional observations from a re-analysis of the deposited data

Results flagged for a closer look

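Among 19 groups of 4 values checked for a library far from the others (the members, Klf4 and library totals), where chance gives about 0.95, 1 was found. Klf4 replicate 2 had a total of 45417853 counts, against 51891997 to 52731176 in the other Klf4 libraries. None of the members' own values stood apart in this way in either group. Without this library the calls for the ID and E protein genes stayed on the same side of the threshold.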

How the results depend on the processing

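Id2, Id4, Tcf3 and Tcf4 kept direction and call under all 17 alternatives, and Tcf12 stayed uncalled with a negative sign. Their log2 fold changes ranged from -0.23 to -0.16 for Id2, 0.82 to 0.92 for Id4, 0.10 to 0.17 for Tcf3 and -0.23 to -0.16 for Tcf4. Without the batch term Id1 (0.22, edgeR adjusted p = 0.097) was no longer called, and 4116 genes changed, 1159 of them lower, against 6684 and 2828. Scaling on highly expressed genes left 1638 genes lower. It also turned Id3 to 0.029, and the filter at 1 CPM turned it to 0.0042. With 1 library left out Id3 ranged from -0.062 to 0.024, uncalled throughout (positive without control replicate 3 or Klf4 replicate 2), and called class II bHLH factors ranged from 7 to 12. Among class II factors 6 of 12 tested were called with the filter at 1 CPM, where Neurog2, Ascl3, Olig2, Tcfl5 and Twist2 were no longer called, 17 of 42 with no filter, and 6 of 21 without the batch term. With the longest transcript as length, the ID sum was 233.3 CPM per kb in control and 237.7 in Klf4 libraries, the E protein sum 66.3 and 67.4, and their ratio 3.52 in both. With the replicate block no call for a member changed, and Bhlhe22 was lost among class II factors (10 called). The mean of Tcf23 in Klf4 libraries ranged from 8.27 to 10.03 CPM. Depth limited the class II and BMP genes under about 1 CPM, which rest on few reads.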
